A study of Mus musculus with 12 samples.

Results

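The genes described here are the tumour necrosis factor (TNF) superfamily receptors and ligands with symbols beginning Tnfrsf or Tnfsf, the TRAF adaptors Traf1 to Traf7, the NF-kB subunits Nfkb1, Nfkb2, Rel, Rela and Relb, the inhibitors Nfkbia and Nfkbie, and the kinases Map3k14, Chuk and Ikbkb. They were chosen by symbol, which gave 50 of the 50600 gene identifiers in the count tables: 20 receptors, 13 ligand loci, 7 TRAF adaptors, 5 subunits, 2 inhibitors and 3 kinases. All 50 passed the filter on low counts. They were measured by sequencing polyadenylated RNA from thymic medullary epithelial cells (mTECs) of mice aged 6 to 8 weeks, with 6 libraries from MHCII-high cells, called mTEC hi, and 6 from MHCII-low cells, called mTEC lo. The mice carried the Psmb11tm1Smta line, either as Psmb11-/- (Psmb11-deficient) or as Psmb11+/+ (WT), and the series set out to compare these genotypes. Psmb11 encodes a proteasome subunit best known from cortical thymic epithelium. The labels do not say whether libraries came from separate or pooled animals, so the p-values reflect only the variation among these libraries, part or all of which may be technical.

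Receptors of this superfamily bind trimeric ligands on neighbouring cells and recruit TRAF adaptors at the membrane. In the classical NF-kB pathway the IkB kinases Chuk and Ikbkb mark inhibitors such as Nfkbia for destruction, which frees dimers of Rela, Rel and the Nfkb1 product. In the alternative pathway TRAF2 and TRAF3 keep the kinase NIK (Map3k14) low, and receptor binding lets NIK and Chuk process the Nfkb2 precursor into the partner of RelB. In the thymus, RANK (Tnfrsf11a), CD40 and the lymphotoxin beta receptor on mTECs receive ligands from thymocytes and innate lymphoid cells, and TRAF6, NIK and RelB are required for a normal medulla.

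Title, source name and strain gave the same genotype in 8 libraries, 2 Psmb11-deficient and 2 WT in each cell type, and gave opposite genotypes in the other 4, which entered only the comparison of cell types. Psmb11 was at 0.847 and 1.30 CPM (CPM is the count relative to the library total, scaled by TMM, the trimmed mean of M-values) in Psmb11-deficient and at 7.54 and 10.3 CPM in WT mTEC hi libraries, and at 1.17 and 1.63 CPM against 7.51 and 12.2 CPM in mTEC lo. Where the labels conflicted, libraries titled WT had 8.16 (mTEC hi) and 7.10 CPM (mTEC lo), and libraries titled knockout had 1.12 and 1.26 CPM. In all 4, Psmb11 was thus closer to the undisputed libraries of the genotype in the title than to those of the other genotype. Libraries held 38791960 to 86793594 reads in genes. The 6 mature mTEC markers summed to 8339 to 8765 CPM in mTEC hi and 2343 to 2688 CPM in mTEC lo, and the 5 markers of immature and Ccl21-producing mTECs to 876 to 941 CPM against 5051 to 6322 CPM. Markers of other cells were also present: dendritic cell and macrophage genes (8 of 8 higher in mTEC hi) summed to 536 to 586 CPM against 66.8 to 93.0 CPM, B cell genes (6 of 6 higher) to 69.1 to 73.6 CPM against 11.5 to 17.7 CPM, and thymocyte genes (6 of 10 higher) to 168 to 304 CPM against 47.2 to 118 CPM. Single genes weighed heavily in these sums. In mTEC hi, Lyz2 with a mean of 425 CPM made up most of the dendritic cell and macrophage sum. Tcf7 had a mean of 109 CPM there in the thymocyte sum. Fibroblast and pericyte genes (3 of 6 higher, 3 lower) summed to 235 to 271 CPM against 238 to 366 CPM. Endothelial genes (0 of 5 higher, 3 lower) summed to 38.9 to 57.4 CPM against 41.2 to 64.1 CPM. Of all genes tested, 44.2% were higher in mTEC hi and 38% lower. No marker of these lists was at 0 in all libraries of a cell type. In bulk RNA, fewer cells of a type and less RNA per cell cannot be told apart.

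Most genes of the set differed between mTEC hi and mTEC lo, with more of them higher in mTEC hi. The RANK axis, the NF-kB subunit genes Nfkb2, Relb and Rel, both IkB genes and the receptor and ligand genes of the OX40, CD30 and 4-1BB pairs were higher in mTEC hi. The TNF receptor gene Tnfrsf1a, the TWEAK receptor gene Tnfrsf12a, the TRAIL gene Tnfsf10, Traf5 and Rela were lower. In the edgeR quasi-likelihood test, adjusted by Benjamini-Hochberg over 23923 genes, 44 of the 50 passed the threshold of 0.05, where 82.1% of all genes tested passed (82.9% at an unadjusted p under 0.05). Of these, 31 were higher in mTEC hi (44.2% of all genes tested) and 13 lower (38% of all genes tested). At least 2-fold changes were called for 23 higher genes (33.5% of all genes tested) and 6 lower genes (12.6%). The median log2 fold change was 0.83 over the set and 0.08 over all genes tested. The 6 genes not called were Chuk, Map3k14, Traf3, Traf4, Tnfrsf18 and Tnfsfm13. Over the 8 libraries with undisputed genotype 31 were again higher and 13 lower. With scaling by library size alone the median of all genes moved to 0.37, the split of called genes from 53.8% to 67.0% higher, and the set to 35 higher and 12 lower.

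**Figure D1:**
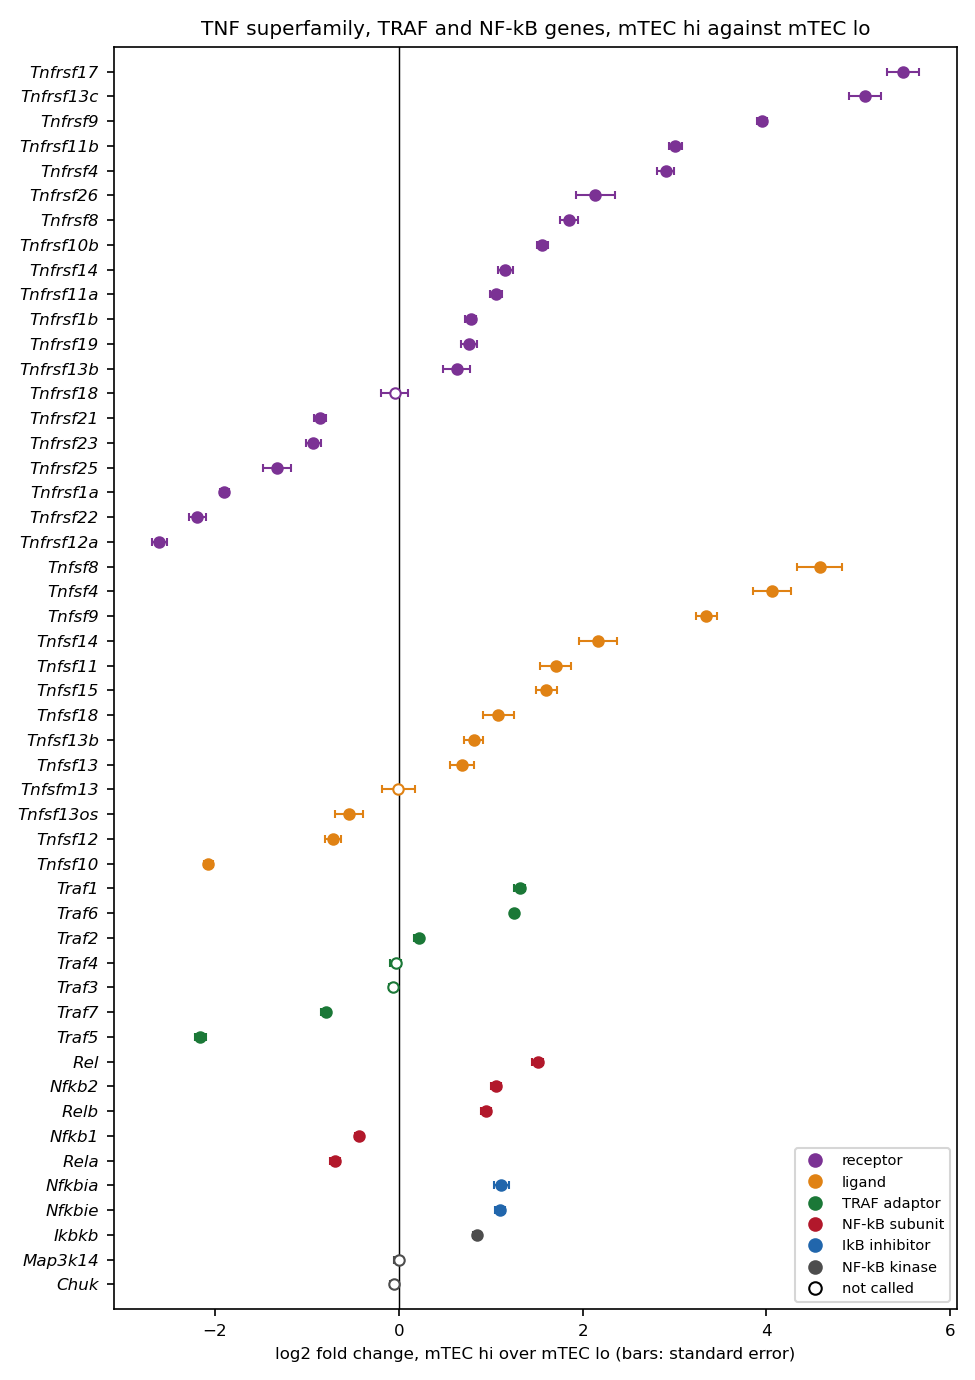
Log2 fold change of mTEC hi over mTEC lo (x axis) for each of the 50 genes (y axis), by role; bars are standard errors from the edgeR fit over 12 libraries, and open circles did not pass the threshold. Receptors ran from -2.60 (Tnfrsf12a) to 5.48 (Tnfrsf17), ligands from -2.07 (Tnfsf10) to 4.58 (Tnfsf8), and both IkB genes lay close to 1.1.

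In 42 of the 50 genes the 6 mTEC hi libraries did not overlap the 6 mTEC lo libraries, which held for 68.8% of all genes tested. Only Tnfsf13os and Tnfrsf13b were called with overlapping libraries. Each mention below that groups or libraries did not overlap stands beside this share of 68.8%. Below, the values of a cell type are the lowest, the median and the highest of its 6 libraries.

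The RANK ligand, its signalling receptor and its decoy were all higher in mTEC hi. Tnfrsf11a, which encodes RANK (chr1:105780718-105847981, GRCm38), was at 281, 307 and 327 CPM in mTEC hi and at 123, 151 and 160 CPM in mTEC lo. That is a 2.08-fold difference (log2 fold change 1.06, SE 0.06, edgeR adjusted p = 3.79e-11). Tnfrsf11b encodes osteoprotegerin, a secreted decoy that captures the RANK ligand (chr15:54250619-54278484). It was at 190, 196 and 200 CPM in mTEC hi and at 19.9, 23.8 and 29.8 CPM in mTEC lo, 8.05-fold higher (log2 fold change 3.01, SE 0.07, edgeR adjusted p = 1.89e-16). The lowest mTEC hi library was thus far above the highest mTEC lo library. Its spread in mTEC hi, a coefficient of variation of 2.27%, was the smallest among the 32 genes averaging 10 CPM or more there. Tnfsf11, the RANK ligand, was scarce: 2.54, 3.18 and 4.15 CPM (141 to 288 reads) in mTEC hi and 0.744, 0.923 and 1.29 CPM (41 to 74 reads) in mTEC lo (log2 fold change 1.71, SE 0.17, edgeR adjusted p = 4.77e-08). The groups did not overlap in any of the 3 genes.

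The other receptors known from epithelium did not move together. Tnfrsf12a, the receptor for TWEAK, was at 8.54, 9.63 and 11.5 CPM in mTEC hi and at 51.9, 59.2 and 70.1 CPM in mTEC lo, 6.08-fold lower in mTEC hi (log2 fold change -2.60, SE 0.08, edgeR adjusted p = 7.64e-15). This was the largest fall of the 50 genes. Tnfrsf21, the death receptor DR6, was also lower (-0.86), and Tnfrsf19, the receptor TROY, was higher (0.76).

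The 2 receptors for TNF itself changed in opposite directions. Tnfrsf1a encodes the TNF receptor with a death domain (chr6:125349362-125362484). It was at 50.9, 55.1 and 57.1 CPM in mTEC hi and at 186, 202 and 219 CPM in mTEC lo, 3.72-fold lower in mTEC hi (log2 fold change -1.90, SE 0.05, edgeR adjusted p = 5.44e-16). Tnfrsf1b encodes the TNF receptor that has no death domain and signals through TRAF2. It was at 31.2, 33.2 and 34.3 CPM in mTEC hi and at 16.5, 19.6 and 21.6 CPM in mTEC lo (log2 fold change 0.78, SE 0.06, edgeR adjusted p = 2.07e-09). Neither gene had overlapping groups.

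Of the 9 receptors best known from the costimulation and survival of lymphocytes, 7 were higher in mTEC hi, Tnfrsf25 was lower and Tnfrsf18 did not pass (of all genes tested, 44.2% were higher and 38% lower). Their median log2 fold change was 1.85. Tnfrsf9, the receptor 4-1BB, was at 80.0, 83.0 and 86.7 CPM in mTEC hi and at 4.80, 5.39 and 5.82 CPM in mTEC lo, 15.5-fold higher (log2 fold change 3.96, SE 0.06, edgeR adjusted p = 1.2e-18). Tnfrsf8, the receptor CD30, was at 146, 171 and 194 CPM against 32.8, 49.1 and 55.7 CPM (3.61-fold, log2 fold change 1.85, SE 0.10). Every mTEC hi library was above every mTEC lo library in both. Tnfrsf4, the receptor OX40, was at 11.8, 13.2 and 14.2 CPM against 1.58, 1.76 and 1.91 CPM (7.49-fold, log2 fold change 2.90, SE 0.09). Tnfrsf14, the receptor HVEM for LIGHT, was at 31.8, 36.7 and 41.8 CPM against 11.95, 17.1 and 19.2 CPM (2.24-fold, log2 fold change 1.16, SE 0.08). Neither had overlapping groups either.

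The largest folds of the set were those of 2 receptors for the survival factors BAFF and APRIL. Tnfrsf17, known as BCMA and a receptor of plasma cells, was at 11.3, 13.3 and 14.6 CPM in mTEC hi and at 0.163, 0.281 and 0.466 CPM (9 to 27 reads) in mTEC lo, 44.7-fold higher (log2 fold change 5.48, SE 0.17, edgeR adjusted p = 9.2e-15). Tnfrsf13c, the BAFF receptor of B cells, was at 10.3, 11.2 and 11.9 CPM against 0.155, 0.333 and 0.526 CPM (9 to 29 reads), 33.6-fold higher (log2 fold change 5.07, SE 0.17, edgeR adjusted p = 2.65e-14). Both were near 0 in mTEC lo, far below every mTEC hi library. Tnfrsf13b, the receptor TACI, differed less, with overlapping libraries: 2.95, 3.24 and 4.20 CPM against 1.58, 2.13 and 3.14 CPM (log2 fold change 0.63, SE 0.15, edgeR adjusted p = 0.000717). All 6 B cell markers were also higher in mTEC hi, but by unequal amounts. Ms4a1, a surface protein gene of B cells, was at 4.38 ± 0.554 CPM (SD, n = 6) in mTEC hi against 0.147 ± 0.106 CPM in mTEC lo. Pax5, the transcription factor of B cell identity, was at 27.4 ± 2.21 CPM against 2.17 ± 0.432 CPM. Cd79b rose only 1.27-fold, with overlapping libraries (log2 fold change 0.34, SE 0.09). The log2 fold changes of the other markers ran from 3.09 (Cd79a) to 4.90 (Blk), without overlap. The part of B cell RNA in these 3 receptor genes was not tested.

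Tnfrsf25, the receptor DR3 for the ligand TL1A, was the receptor of this group that fell. It was at 0.975, 1.42 and 1.71 CPM in mTEC hi and at 2.504, 3.48 and 3.93 CPM in mTEC lo, with no overlap (log2 fold change -1.33, SE 0.15, edgeR adjusted p = 3.56e-07). Tnfrsf18, the receptor GITR, was at 2.05, 2.49 and 3.26 CPM against 2.20, 2.68 and 3.12 CPM (log2 fold change -0.05, SE 0.15, edgeR adjusted p = 0.785). Its exons share 27.2% of their bases with the neighbouring gene Gm16008.

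The TRAIL receptor and the related decoy genes split. Tnfrsf10b, the mouse receptor through which TRAIL can trigger cell death, was at 65.6, 66.7 and 72.5 CPM in mTEC hi and at 19.6, 22.9 and 26.6 CPM in mTEC lo, 2.95-fold higher (log2 fold change 1.56, SE 0.06, edgeR adjusted p = 2e-13). Tnfrsf22, a decoy receptor for TRAIL, was at 3.16, 3.32 and 3.52 CPM against 13.4, 14.98 and 18.4 CPM, 4.56-fold lower (log2 fold change -2.19, SE 0.09, edgeR adjusted p = 2.45e-13). The decoy gene Tnfrsf23 was lower as well (-0.93). Tnfrsf26, a receptor gene beside them, was scarce, at 1.40, 2.05 and 2.45 CPM against 0.327, 0.459 and 0.508 CPM (19 to 28 reads; 4.41-fold higher, log2 fold change 2.14, SE 0.21). None of these 4 genes had overlapping libraries.

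Among the 13 ligand loci, 9 were higher in mTEC hi and 3 lower (44.2% and 38% of all genes tested), with a median log2 fold change of 1.08. Tnfsf9, the 4-1BB ligand, had the highest level per length of the ligands that rose (47.1 TPM in mTEC hi). It was at 28.7, 32.6 and 38.7 CPM in mTEC hi and 2.61, 3.09 and 4.32 CPM in mTEC lo, 10.2-fold higher (log2 fold change 3.35, SE 0.12, edgeR adjusted p = 3.4e-14). Of its exon bases 14.9% are shared with Gm11110. Tnfsf8, the CD30 ligand, was at 3.80, 4.38 and 4.73 CPM against 0.0466, 0.171 and 0.311 CPM (3 to 18 reads), with a fitted log2 fold change of 4.58 (SE 0.25). Tnfsf4, the OX40 ligand, was at 3.12, 3.68 and 4.89 CPM against 0.107, 0.249 and 0.310 CPM (6 to 18 reads), with 4.06 (SE 0.21). These 2 ligands rested on few reads in mTEC lo, and the standard errors of their folds were larger than that of Tnfsf9. Tnfsf14, the ligand LIGHT, was at 1.996, 2.33 and 3.65 CPM against 0.464, 0.536 and 0.745 CPM (log2 fold change 2.17, SE 0.21).

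Tnfsf15, the ligand TL1A, was at 6.51, 8.51 and 9.55 CPM in mTEC hi and 2.36, 2.74 and 3.06 CPM in mTEC lo (log2 fold change 1.61, SE 0.11). Tnfsf18, the GITR ligand, was at 2.23, 2.67 and 3.19 CPM against 0.780, 1.15 and 1.90 CPM (log2 fold change 1.08, SE 0.17). The ligands of both receptors that did not rise were thus higher in every mTEC hi library than in any mTEC lo library. Tnfsf13b, which encodes BAFF, was also higher (0.82).

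Tnfsf10, which encodes TRAIL, was the ligand that fell most. It was at 36.1, 39.7 and 43.0 CPM in mTEC hi and at 159, 166 and 179 CPM in mTEC lo, 4.20-fold lower in mTEC hi (log2 fold change -2.07, SE 0.05, edgeR adjusted p = 3.27e-16). No library of one cell type came near the other. The remaining ligand loci lie on top of each other at chr11:69682138-69696098: Tnfsf12 (TWEAK, -0.72), Tnfsf13 (APRIL, 0.69), the read-through gene Tnfsfm13 (-0.004, not called) and the antisense gene Tnfsf13os (-0.54). Their exons share 48.2%, 60.0%, 78.1% and 22.8% of their bases with one another, and the counts ignore strand, so the division of reads among these 4 genes is uncertain. Tnfsf13os was no longer called when scaled by library size only (adjusted p = 0.141) or with expected counts (adjusted p = 0.104).

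Of 12 pairs of a ligand and a signalling receptor within the set, 8 had both genes higher in mTEC hi, where 44.2% of all single genes tested were higher. These were RANK ligand with RANK, the OX40, CD30, 4-1BB and LIGHT pairs, BAFF with its receptor, and APRIL with TACI and with BCMA. The 2 pairs with APRIL rest on Tnfsf13, whose reads are uncertain and which was not called at a minimum change of 1.5-fold (adjusted p = 0.138). TWEAK and its receptor were both lower. TL1A was higher while its receptor was lower, TRAIL was lower while its receptor was higher, and the GITR ligand was higher while its receptor was not called. In TPM (the authors' transcript level per length, which allows genes to be compared), the mean of the ligand was below that of its signalling receptor in 9 of 12 pairs in mTEC hi and 8 of 12 in mTEC lo. The exceptions in mTEC hi were TWEAK, TL1A and APRIL with TACI, and in mTEC lo TRAIL, BAFF and both APRIL pairs. RANK ligand was at 2.40 ± 0.396 TPM (SD, n = 6) in mTEC hi beside 132 ± 7.33 TPM for RANK and 120 ± 4.25 TPM for osteoprotegerin. The CD30 ligand was at 1.80 ± 0.168 TPM beside 82.4 ± 7.81 TPM for CD30. The 4-1BB pair was closer, at 47.1 ± 5.03 TPM for the ligand and 86.8 ± 5.60 TPM for the receptor.

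**Figure D2:**
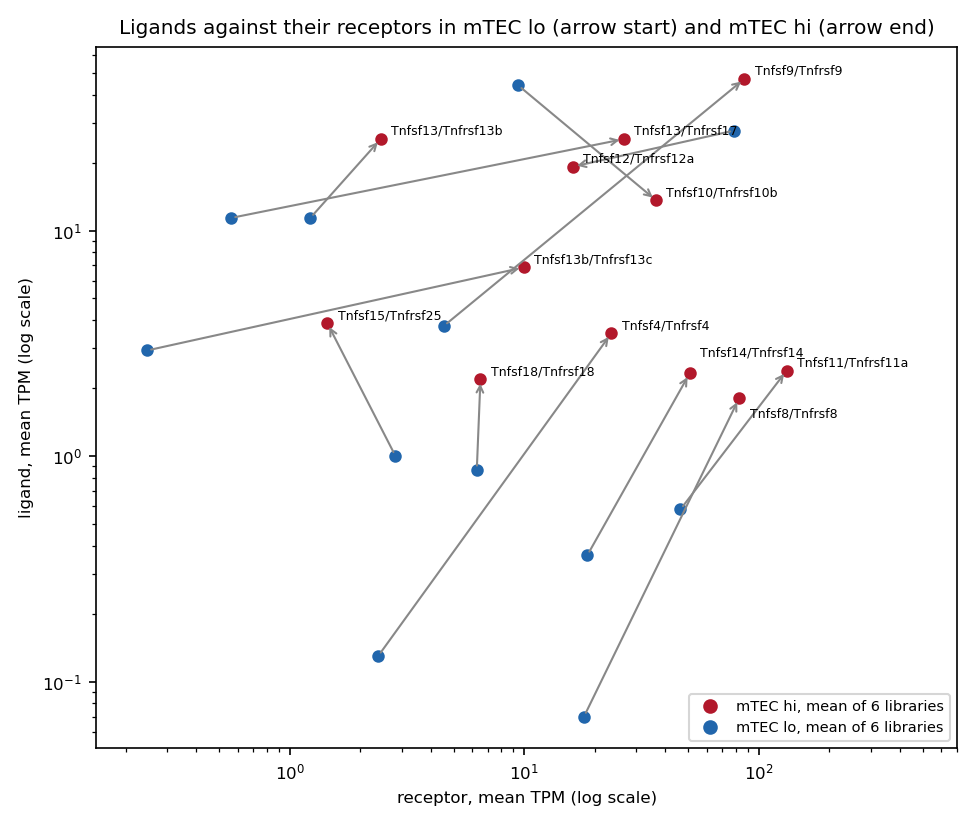
Mean TPM of the ligand (y axis, log scale) against mean TPM of its signalling receptor (x axis, log scale) for 12 pairs, with arrows from mTEC lo to mTEC hi (means of 6 libraries each). In 9 pairs the arrow points up and to the right (both mean TPM higher in mTEC hi). In the OX40 pair the ligand went from 0.130 to 3.497 TPM and the receptor from 2.39 to 23.5 TPM. The 9 include the GITR pair, whose receptor was at 6.28 TPM in mTEC lo and 6.51 TPM in mTEC hi and was not called. The TRAIL and TWEAK pairs run downward. TPM is not TMM-scaled.

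The TRAF adaptors, which link receptors to kinases, ran in both directions: 3 of 7 were higher, 2 lower and 2 not called (44.2% of all genes tested were higher and 38% lower). Traf6, which RANK uses to reach the classical pathway, was at 162, 172 and 177 CPM in mTEC hi and at 68.2, 71.6 and 75.1 CPM in mTEC lo, 2.39-fold higher (log2 fold change 1.26, SE 0.04, edgeR adjusted p = 9.71e-15). Traf1, which is itself a known NF-kB target, was at 98.9, 110 and 118 CPM against 39.5, 44.96 and 48.2 CPM, 2.49-fold higher (log2 fold change 1.31, SE 0.06, edgeR adjusted p = 4.9e-13). Traf5 went the other way, at 8.04, 8.46 and 9.10 CPM against 33.8, 37.7 and 42.3 CPM, 4.46-fold lower (log2 fold change -2.16, SE 0.06, edgeR adjusted p = 1.21e-15). The groups of these 3 genes were widely apart.

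Traf2, the adaptor of the TNF receptors and partner of TRAF3, differed slightly, at 85.1, 87.9 and 93.3 CPM in mTEC hi and 67.8, 78.2 and 79.9 CPM in mTEC lo (log2 fold change 0.22, SE 0.05, edgeR adjusted p = 0.000578). Traf3, the brake on NIK, was at 128, 144 and 150 CPM against 126, 152 and 164 CPM, and the groups overlapped (log2 fold change -0.06, SE 0.04, edgeR adjusted p = 0.183). Traf7 was lower (-0.80), and Traf4 was not called (-0.03). Under scaling by library size alone Traf3 and Traf4 were at 0.22 and 0.25 and called higher, so their direction depends on the scaling.

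Among the NF-kB subunits, Nfkb2, Relb and Rel were higher in mTEC hi, and Nfkb1 and Rela were lower (44.2% of all genes tested were higher and 38% lower). Nfkb2, the precursor of the alternative pathway (chr19:46304320-46312385), was at 564, 584 and 609 CPM in mTEC hi and at 258, 280 and 316 CPM in mTEC lo, 2.08-fold higher (log2 fold change 1.06, SE 0.05, edgeR adjusted p = 3.74e-12). Of its exon bases 18.1% are shared with other genes. Its partner gene Relb (chr7:19606217-19629438) was at 306, 317 and 334 CPM against 147, 168 and 182 CPM, 1.94-fold higher (log2 fold change 0.95, SE 0.06, edgeR adjusted p = 4.19e-11). Rel, the subunit c-Rel known from activated lymphocytes, was at 104, 122 and 131 CPM against 39.3, 42.1 and 46.9 CPM, 2.85-fold higher (log2 fold change 1.51, SE 0.06, edgeR adjusted p = 1.31e-13). No library of one cell type overlapped the other in these 3 genes.

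Rela, the main activating subunit of the classical pathway, was at 80.5, 86.9 and 99.0 CPM in mTEC hi and at 131, 142 and 151 CPM in mTEC lo, 1.62-fold lower (log2 fold change -0.69, SE 0.06, edgeR adjusted p = 3.29e-09). Nfkb1, the precursor of its partner, was at 202, 223 and 230 CPM against 285, 297 and 320 CPM, 1.35-fold lower (log2 fold change -0.43, SE 0.04, edgeR adjusted p = 7.68e-08). Both sets of libraries were apart in CPM, and in the test against a minimum change of 1.5-fold Nfkb1 did not pass (adjusted p = 1). With scaling by library size alone Nfkb1 was at -0.15 and Rela at -0.41, both still called lower. In TPM, which is not TMM-scaled, the libraries of Nfkb1 overlapped. They were at 122.6 to 140.7 TPM in mTEC hi and 115 to 141.7 TPM in mTEC lo.

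Both inhibitors and 1 of 3 kinases were higher in mTEC hi, and the other kinases were not called (44.2% of all genes tested were higher and 38% lower). Nfkbia, which encodes IkB-alpha and is a known target of NF-kB (chr12:55489410-55492647), was at 1117, 1317 and 1399 CPM in mTEC hi and at 499, 566 and 737 CPM in mTEC lo, 2.17-fold higher (log2 fold change 1.12, SE 0.08, edgeR adjusted p = 7.46e-10). Nfkbie, which encodes IkB-epsilon (chr17:45555703-45563169), was at 238, 248 and 264 CPM against 95.8, 119 and 126 CPM, 2.15-fold higher (log2 fold change 1.10, SE 0.05, edgeR adjusted p = 3.08e-12). Both genes had no overlap between cell types. Of the kinases, Ikbkb, which encodes IKK-beta, was 1.80-fold higher (log2 fold change 0.85, SE 0.05). Map3k14, which encodes NIK, was at 97.6, 102 and 108 CPM against 92.5, 102 and 118 CPM, with overlapping libraries and equal medians (log2 fold change -0.002, SE 0.05, edgeR adjusted p = 0.977). Chuk, which encodes IKK-alpha, was at -0.05 (SE 0.05, edgeR adjusted p = 0.345). With scaling by library size alone Map3k14 was at 0.28 and Chuk at 0.24, and both were called higher.

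**Figure D3:**
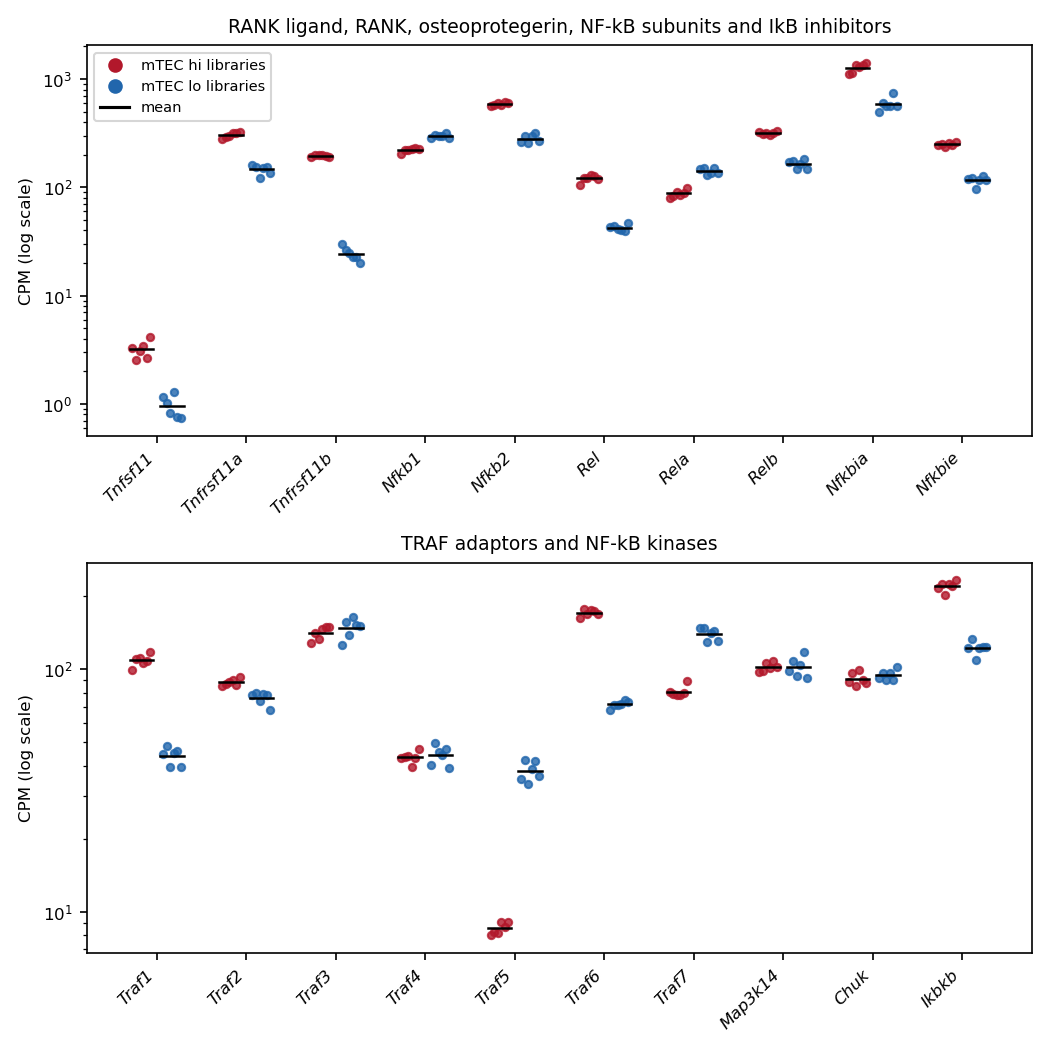
CPM in each library (y axis, log scale; 6 mTEC hi in red, 6 mTEC lo in blue, bars are means) for the RANK axis, NF-kB subunits and IkB inhibitors (top) and for the TRAF adaptors and kinases (bottom). The groups of Tnfrsf11b are farthest apart in the top panel (190 to 200 CPM against 19.9 to 29.8 CPM), and those of Traf3, Traf4, Map3k14 and Chuk overlap in the bottom panel.

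The sequence before the start of several of these genes holds the letters of the kappaB consensus, the site that NF-kB dimers bind. Promoters of 300 bases (250 before and 50 after a start, RefSeq, GRCm38.p6) were listed for 39 of the 50 genes. The other 11 genes are Tnfrsf10b, Ikbkb, Tnfrsf11b, Tnfsf13os, Tnfrsf22, Tnfsf12, Nfkb1, Tnfrsf26, Tnfsf9, Tnfsf4 and Relb. Both strands were searched for the consensus GGGRNWYYCC (R is A or G, N any base, W is A or T, Y is C or T). At least 1 match was found in 7 of the 39 genes (17.9%), where 5.14% of 27025 genes and 4.51% of 32851 promoters in the table hold one. The 7 were Nfkb2, Nfkbia, Nfkbie, Rel, Tnfrsf8, Tnfrsf9 and Traf3. Of the 24 listed genes higher in mTEC hi 6 held a match, of the 9 lower genes 0, and of the 6 not called 1. How many of all genes higher or lower in mTEC hi hold a match was not counted, so nothing is drawn from this split. The 250 bases before the start are shown for the 2 IkB genes, which rose by nearly the same fold. Capitals mark the match, which begins at position -29 in Nfkbia (chr12:55492648-55492897, minus strand) and at position -106 in Nfkbie (chr17:45555450-45555699, plus strand), counting back from -1 at the base before the start.
Nfkbia: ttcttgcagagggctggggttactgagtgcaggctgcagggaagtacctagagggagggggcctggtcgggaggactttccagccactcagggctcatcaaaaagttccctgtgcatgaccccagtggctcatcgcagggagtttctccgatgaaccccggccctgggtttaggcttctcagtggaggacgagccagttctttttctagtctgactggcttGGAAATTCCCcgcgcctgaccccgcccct
Nfkbie: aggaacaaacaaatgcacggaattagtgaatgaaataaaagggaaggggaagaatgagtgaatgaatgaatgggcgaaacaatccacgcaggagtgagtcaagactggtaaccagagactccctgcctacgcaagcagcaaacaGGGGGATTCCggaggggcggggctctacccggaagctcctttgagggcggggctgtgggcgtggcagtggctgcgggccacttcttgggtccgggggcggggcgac

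For the other 5 genes 1 match each is shown with the 10 bases on either side, read on the strand of the gene, to let the letters be compared. Nfkb2 and Rel are subunits that rose, Tnfrsf9 and Tnfrsf8 are receptors that rose, and Traf3 was not called. The regions are chr19:46304688-46304717 (plus strand, Nfkb2), chr11:23771041-23771070 (minus strand, Rel), chr4:150927946-150927975 (plus strand, Tnfrsf9), chr4:145315313-145315342 (minus strand, Tnfrsf8) and chr12:111166350-111166379 (plus strand, Traf3). The starts used for Nfkb2 and Tnfrsf9 lie inside the span of the gene in GENCODE. Of the 250 bases before the start, all 250 lie in GENCODE exons for Nfkb2 and 81 for Tnfrsf9.
Nfkb2: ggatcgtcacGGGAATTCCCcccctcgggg
Rel: gtaagcagcgGGAAATCCCCccccctcccc
Tnfrsf9: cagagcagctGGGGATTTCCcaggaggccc
Tnfrsf8: tcaaaacgcaGGGGAGCCCCctgcgtgcgt
Traf3: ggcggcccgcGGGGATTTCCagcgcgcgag

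The letters GGGGATTTCC stood before both Tnfrsf9, which was 15.5-fold higher in mTEC hi, and Traf3, which was not called. A match describes letters only, and no binding was measured.

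Several genes of the set are neighbours. Within a gap of 100 kb, 17 of them formed 7 runs, and in 4 runs every gene was called in the same direction: Tnfsf4 with Tnfsf18 on chromosome 1, Tnfsf15 with Tnfsf8 and Tnfrsf1b with Tnfrsf8 on chromosome 4, and Tnfsf9 with Tnfsf14 on chromosome 17. The genes of these 4 runs were all higher in mTEC hi, as were 31 of the 50 genes and 44.2% of all genes tested. Whether neighbours share a direction more often than other genes was not tested. Neighbours also diverged. Tnfrsf4 rose by 2.90 beside Tnfrsf18 at -0.05 on chromosome 4. On chromosome 7, Tnfrsf26 (143607659 to 143628722) was higher while the adjoining Tnfrsf22 (143634806 to 143649661) and Tnfrsf23 (143665809 to 143685872) were lower.

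By level per length, Nfkbia stood first in both cell types, at 1502 ± 152 TPM in mTEC hi and 550 ± 72.8 TPM in mTEC lo (SD, n = 6 each). In mTEC hi Nfkb2 (297 ± 11.9 TPM) and Relb (236 ± 7.41 TPM) followed, and the libraries of these 3 ranks did not overlap those of the rank below. Then came Nfkbie (166 ± 8.98 TPM), Ikbkb (134 ± 13.5 TPM), Nfkb1 (133 ± 6.85 TPM), Tnfrsf11a (132 ± 7.33 TPM) and Tnfrsf11b (120 ± 4.25 TPM), each overlapping the next. In mTEC lo the order behind Nfkbia was Tnfrsf1a (133 ± 4.68 TPM), Nfkb1 (131 ± 9.58 TPM), Traf7 (115 ± 15.4 TPM), Nfkb2 (114 ± 11.1 TPM) and Relb (98.7 ± 11.5 TPM), each overlapping the next. Among the receptors of the set, the TNF receptor gene Tnfrsf1a was thus first in mTEC lo, and RANK and osteoprotegerin were first in mTEC hi. Cd40, a superfamily receptor outside the set, was at 270 ± 15.8 TPM in mTEC hi, above both of these. A mean of at least 10 TPM was reached by 34 genes in mTEC hi and 27 in mTEC lo. No gene had a mean under 1 TPM in mTEC hi, and 8 had one in mTEC lo. Libraries of one cell type were close: the median coefficient of variation was 5.58% over 32 genes in mTEC hi (highest 10.8%, Tnfsf9) and 8.86% over 30 genes in mTEC lo (highest 18.5%, Tnfrsf8), over genes averaging 10 CPM or more.

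Superfamily members with other names were also mostly higher in mTEC hi. Of 15 such receptors and ligands, 11 were higher in mTEC hi and 4 lower, with a median log2 fold change of 1.52, beside 44.2% of all genes tested called higher and 38% lower. Lta, which encodes lymphotoxin alpha, was at 17.2 ± 1.36 CPM (SD, n = 6) in mTEC hi against 0.251 ± 0.142 CPM in mTEC lo (log2 fold change 6.11, SE 0.20), and Cd70, the CD27 ligand, at 28.03 ± 4.33 CPM against 1.23 ± 0.375 CPM (4.51, SE 0.17). Edar, the ectodysplasin receptor, was at 11.7 ± 0.897 CPM against 59.1 ± 4.16 CPM (-2.33, SE 0.06), and Ngfr, the neurotrophin receptor, at 22.5 ± 1.62 CPM against 82.7 ± 10.97 CPM (-1.88, SE 0.07). The partners of RANK in mTEC biology, singled out after their values were seen, differed in direction: Cd40 was at 224 ± 8.46 CPM against 27.4 ± 2.79 CPM (3.04, SE 0.06), and Ltbr, the lymphotoxin beta receptor, at 40.5 ± 2.28 CPM against 109 ± 7.97 CPM (-1.43, SE 0.06).

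Other adaptors, kinases and inhibitors of NF-kB did not lean to one side: 11 of 28 were higher, 13 lower and 4 not called (44.2% of all genes tested were higher and 38% lower), with a median of -0.09. Nfkbid, which encodes a nuclear IkB protein, was at 47.7 ± 6.61 CPM in mTEC hi against 10.3 ± 1.30 CPM in mTEC lo (2.22, SE 0.09). Tnip1, a partner of the ubiquitin-editing enzyme A20, was at 559 ± 29.4 CPM against 224 ± 18.5 CPM (1.32, SE 0.05). The inhibitors that fell most are themselves known NF-kB targets: Nfkbiz, another nuclear IkB gene, was at 137 ± 19.3 CPM against 588 ± 66.1 CPM (-2.10, SE 0.08), and Tnfaip3, which encodes A20, at 175 ± 25.2 CPM against 553 ± 76.9 CPM (-1.66, SE 0.09).

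Of 16 genes commonly read as NF-kB targets, 11 were higher and 5 lower (44.2% and 38% of all genes tested), with a median of 1.22. Ptgs2, which encodes the cyclooxygenase COX-2, was at 768 ± 90.9 CPM against 60.8 ± 7.12 CPM (3.66, SE 0.09), and the chemokine gene Ccl5 at 104 ± 12.4 CPM against 8.62 ± 1.26 CPM (3.59, SE 0.09). The macrophage growth factor gene Csf1 was lower, at 73.4 ± 2.33 CPM against 184 ± 10.7 CPM (-1.32, SE 0.05), as was the interferon-induced chemokine gene Cxcl10, at 506 ± 33.1 CPM against 1164 ± 180 CPM (-1.20, SE 0.09).

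Between Psmb11-deficient and WT libraries no gene of the set was called. In mTEC hi the edgeR test called 0 of the 50, where 0.00375% of 26642 genes passed, which was Psmb11 alone (log2 fold change -3.07, SE 0.31, adjusted p = 0.00457). At an unadjusted p under 0.05 it found 0 of the 50 and 3.45% of all genes. DESeq2 also called 0 of the 50. Fold changes ran from -0.44 (Tnfrsf25) to 0.50 (Tnfsf4), with a median SE of 0.12. In mTEC lo the edgeR test again called 0 of the 50, where 0.015% of all genes passed. At an unadjusted p under 0.05 there were 8 of the 50 (11.3% of all genes): Tnfrsf11b, Tnfsf18, Tnfsf12, Tnfrsf12a and Tnfrsf17 above WT, and Traf3, Tnfrsf8 and Tnfrsf14 below. DESeq2 called 0 here too. Fold changes ran from -0.44 (Tnfrsf13c) to 0.99 (Tnfsf18), with a median SE of 0.12. The genotype effect differed between cell types for 0 of the 50 in the edgeR test (0% of all genes called) and in DESeq2, and for 1 at an unadjusted p under 0.05, Tnfrsf11b (4.41% of all genes).

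Osteoprotegerin had the lowest p in mTEC lo. Tnfrsf11b was at 24.9 and 29.8 CPM in the Psmb11-deficient and at 19.9 and 22.7 CPM in the WT libraries, so the groups were apart by a small margin (log2 fold change 0.35, SE 0.10, edgeR adjusted p = 0.259). The libraries with conflicting labels were at 26.2 CPM (WT title) and 22.6 CPM (knockout title). In mTEC hi it was at 192 and 199 CPM against 190 and 200 CPM (0.01, SE 0.10), and the difference between the cell types had an unadjusted p of 0.0306 (edgeR, -0.34, SE 0.14, adjusted p = 0.9998). Without Psmb11-deficient replicate 2 in mTEC lo, which leaves that arm with 1 library assumed to vary like the others, its value was 0.48 and it was called (adjusted p = 0.0342). Without the filter it was called as well (0.36, adjusted p = 0.0429).

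Tnfsf18 was at 1.80 and 1.90 CPM in Psmb11-deficient and at 0.780 and 1.072 CPM in WT mTEC lo libraries (0.99, SE 0.30, edgeR adjusted p = 0.269), with 43 to 116 reads in a library of mTEC lo. Both mTEC lo libraries with conflicting labels were at 1.15 CPM. Traf3 was at 126 and 139 CPM against 151 and 164 CPM in mTEC lo (-0.26, SE 0.09, edgeR adjusted p = 0.303). In mTEC hi it was at 128 and 133 CPM against 147 and 149 CPM (-0.17, SE 0.09, edgeR adjusted p = 1). Among the libraries with conflicting labels, the mTEC hi library titled knockout had the highest Traf3 of that cell type (150 CPM, beside 142 CPM for the one titled WT). Both mTEC lo libraries of this kind lay within the WT range, at 153 CPM (knockout title) and 157 CPM (WT title). Tnfrsf8 was at 42.3 and 45.4 CPM against 52.9 and 55.7 CPM in mTEC lo, with 53.4 CPM (WT title) and 32.8 CPM (knockout title) where labels conflict, and the difference of its genotype effect between cell types was 0.31 (SE 0.16, edgeR adjusted p = 0.9998). In mTEC hi, Tnfsf4 was at 4.08 and 4.89 CPM against 3.12 and 3.28 CPM (0.50, SE 0.30) and Tnfrsf21 at 32.6 and 33.7 CPM against 27.1 and 32.0 CPM (0.18, SE 0.11).

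RANK itself lay at -0.14 (SE 0.11) in mTEC hi and -0.02 (SE 0.11) in mTEC lo between genotypes. Genes of the alternative pathway lay near 0 as well: Relb at 0.01 (SE 0.10) and 0.03 (SE 0.10), Nfkb2 at -0.02 (SE 0.09) and -0.12 (SE 0.09), and Map3k14 at 0.01 (SE 0.09) and -0.04 (SE 0.09). With 2 libraries a side, these standard errors set the size of difference that could be seen. Thymocyte marker genes summed to 183 and 304 CPM in Psmb11-deficient and to 169 and 171 CPM in WT mTEC hi libraries. In mTEC lo the sums were 79.9 and 118 CPM against 47.2 and 54.0 CPM. The sums were thus higher in Psmb11-deficient libraries, but 1 of the 2 in mTEC hi was close to WT. No gene of this list was called between genotypes (lowest edgeR adjusted p = 0.103, Tcf7 in mTEC lo). The part of thymocyte RNA in the genotype values above was not tested. None of the pathway lists had a called gene between genotypes in either cell type by edgeR.

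**Figure D4:**
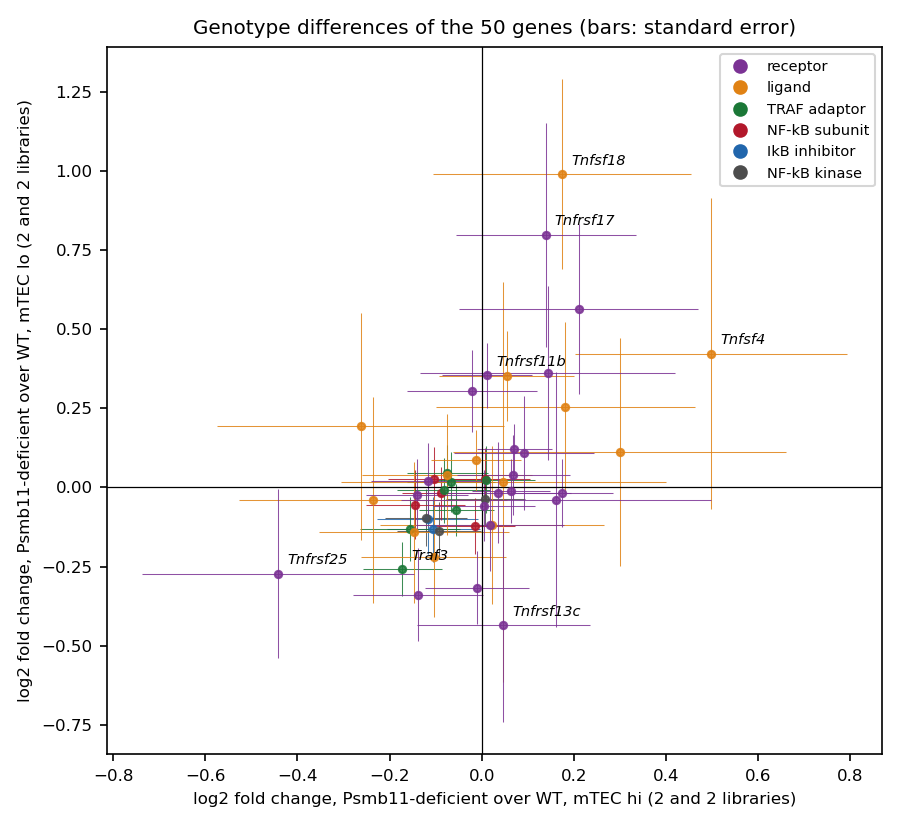
Log2 fold change of Psmb11-deficient over WT in mTEC lo (y axis) against the same in mTEC hi (x axis) for the 50 genes, from 2 and 2 libraries in each cell type; bars are standard errors. Tnfsf18 lies highest at 0.99 and Tnfsf4 farthest right at 0.50, and no gene passed the threshold in either cell type.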

How the data were processed

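For every library, 2 tables were used. The first, as deposited, holds raw read counts of each gene, unnormalized whole numbers, given without regard to strand and for either strand. The second, also from the authors, holds RSEM's expected counts and TPM. Tools in the submitters' processing notes are CASAVA 1.8.2, STAR 2.5.1b and RSEM 1.2.28. The build listed there is GRCh38, although the identifiers are of mouse genes, and no source used here gives the annotation. Per the labels, TruSeq libraries were made from TRIzol and RNeasy extracts. Because the strand columns were nearly equal (50.4 to 50.8% in the first), the unstranded counts were tested. Reads in no gene (8.26 to 17.2%) were left out. Rounded expected counts served as an alternative, and TPM served for levels between genes. TPM is not TMM-scaled, so differences between cell types were tested on the counts and given in CPM.

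Symbols, coordinates and exon overlap came from GENCODE M21 (GRCm38), which matched 50376 of 50600 identifiers. The filterByExpr filter had a count minimum of 10 and a total minimum of 15. TMM scaling and the quasi-likelihood F test were those of edgeR 4.0.16 in R 4.3.3. The comparison of cell types used all 12 libraries and adjusted for genotype class. The genotype contrasts came from 1 fit of 4 groups to the 8 undisputed libraries, which leaves 4 residual degrees of freedom. Benjamini-Hochberg adjustment was applied over all genes tested (threshold 0.05). Standard errors were taken as the absolute log2 fold change over the square root of F. No pair of libraries agreed within counting noise (lowest chi-square per gene 7.70). Alternatives were RLE size factors, library size alone, DESeq2 1.42.0, no filter, expected counts, a minimum change of 1.5-fold, each library left out, other genotype labels, replicate blocks and the undisputed libraries.

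The genes and lists were chosen with earlier results of these data known. The genes given with full values are the RANK axis, the NF-kB subunits, Map3k14, Traf2, Traf3, Traf6 and Nfkbia, every called gene of the set with at least a 2-fold change and a mean of at least 1 CPM in either cell type, the 3 lowest p of each genotype comparison, and the 2 largest called changes per direction in each pathway list.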

Additional observations from a re-analysis of the deposited data

Results flagged for a closer look

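In 72 groups of 6 libraries (the genes named with values, in each cell type) 3 had a library that lay apart from the other 5 by Dixon's test, and chance flags about 1 in 20 groups. Nfkb1 in mTEC hi was lowest in Psmb11-deficient replicate 1, at 202 CPM against 220 to 230 CPM in the other libraries. Tnfrsf10b in mTEC hi was highest in the same library, at 72.5 CPM against 65.6 to 67.4 CPM. Nfkbie in mTEC lo was lowest in Psmb11-deficient replicate 2, at 95.8 CPM against 117 to 126 CPM. Each of the 3 genes stayed on its side of the threshold between cell types without that library.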

How the results depend on the processing

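Between mTEC hi and mTEC lo the calls of the set (44, with 31 higher and 13 lower) were the same under RLE size factors, DESeq2, no filter, the 8 undisputed libraries, no genotype class and each library left out, and genes called ranged from 19337 to 20129 over the libraries left out. With a minimum change of 1.5-fold 12958 genes were called, and Nfkb1, Traf2, Tnfrsf13b, Tnfsf13 and Tnfsf13os were lost from the set. Map3k14 (0.28) and Traf3 (0.22) changed sign with scaling by library size alone. In mTEC hi, where 1 gene was called, 3 were called by DESeq2, 42 with no filter, 3 with expected counts, 0 with genotype from the source name and 0 to 2 with a library left out. In mTEC lo, where 4 were called, 9 were called with library size alone, 158 by DESeq2, 660 with no filter (1 of the set), 2 with genotype from the source name and 1 to 323 with a library left out (0 to 1 of the set). For the difference between cell types, where 0 were called, 9 were called by DESeq2, 141 with no filter, 2 with expected counts and 0 to 49 with a library left out. Psmb11 missed the threshold in mTEC hi without Psmb11-deficient replicate 1 (-2.77, adjusted p = 0.448) or WT replicate 2 (-2.82, adjusted p = 0.194), and with genotype from the source name (-0.86 in mTEC hi, -1.10 in mTEC lo). The causes were not tested.

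Whether the numbers in the titles pair the libraries is uncertain. Deviations from group means of same-numbered mTEC hi and mTEC lo libraries correlated at -0.062 to 0.117 (12 pairs). The 6 of these sharing the whole title were all positive, at 0.009 to 0.117. Those of the 24 pairs with other numbers were at -0.097 to 0.076. Between knockout and WT titles, same-numbered libraries were at 0.015 to 0.089 in mTEC hi and -0.03 to 0.076 in mTEC lo (3 pairs each). Pairs with other numbers were at -0.056 to 0.038 and -0.088 to 0.052 (6 pairs each). These correlations are too small to settle the pairing. With the title number as a replicate block the set kept 31 higher and 13 lower calls between cell types. In that block 45 genes were called between genotypes in mTEC lo, 13 with genotype from the title, and 7 for the difference between cell types. No gene of the set was called between genotypes in any of these blocked fits. Depth limited Tnfsf8, Tnfsf4, Tnfrsf17, Tnfrsf13c and Tnfrsf26 in mTEC lo, where no library held more than 29 reads of any of them.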
